A study of Saccharomyces cerevisiae with 2 samples.

Results

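The pericentromeric chromatin of budding yeast was examined here as the 250 bp windows within 10 kb of the 16 centromeres. A centromere is the site where the kinetochore, the protein assembly that holds the microtubule of the spindle, is built on a chromosome. In Saccharomyces cerevisiae it is a point centromere, a short DNA element on which a specialised nucleosome with the histone H3 variant Cse4 and the inner kinetochore proteins sit. The flanking pericentromeric chromatin is made of ordinary nucleosomes in genes and gene borders, and it is known for its high content of cohesin, which holds sister chromatids together. Micrococcal nuclease (MNase) digests linker DNA before it digests the DNA that histones protect, so fragments of nucleosomal size mark protected DNA.

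The windows were defined by position alone, from an approximate centre for each chromosome, and no measured value entered the definition. The regions were taken up with earlier results of these data known. They numbered 1280 of 48167 nuclear windows, 80 on each chromosome. They were set against 5114 control windows that lay 20 to 60 kb from the centre of the same chromosome and more than 20 kb from its ends. The approximate centres carry an error of up to about 0.4 kb on chromosomes 10 and 11. Centromere DNA itself was not used to place them, and its sequence is not shown because the genome sequence of the build was not used here.

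The study profiled in vivo nucleosomes in yeast cells grown in rich medium (YPD), fixed with formaldehyde and digested with MNase. It holds a single condition with 2 libraries, named here replicate 1 and replicate 2, and the labels give no strain, genotype or cell cycle stage. The study's supplementary material names the laboratory strain BY for its yeast in vivo nucleosomes. They do not say whether the second library came from a second culture. All comparisons are therefore between regions within the libraries, and their p-values measure the spread over chromosomes in these libraries, not over cultures.

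Replicate 1 held 21957427 nuclear reads and replicate 2 held 19261599. Each read was placed at the presumed middle of its fragment, and the reads in a window were divided by the median nuclear window of the library, 396 reads in replicate 1 and 338 in replicate 2. This density is 1 in a median window. Of the nuclear reads, 2.41% of replicate 1 (529190 reads) and 2.43% of replicate 2 (467190 reads) fell in the pericentromeric windows, which make up 2.66% of the nuclear DNA. Over the 1280 windows the densities of the libraries followed each other, with a Pearson r of 0.93 and a Spearman rho of 0.94. Over the control windows the values were 0.94 and 0.94. These are correlations across neighbouring windows of the same chromosomes, not across independent samples.

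At every centromere the reads gave way to a short interval almost without fragments. A depleted interval was defined as a run of at least 80 bp in which coverage, with reads lengthened to 147 bp, stayed under 0.2 times the nuclear median in both libraries. All 16 centres had the middle of such an interval within 500 bp. Of all nuclear windows 25.4% lay that close to the middle of a depleted interval, and of the control windows 23.8% did. The distance from the approximate centre to the middle of the interval had a median of 45.8 bp and ran from 11 bp on chromosome 13 to 186 bp on chromosome 4.

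**Figure D1:**
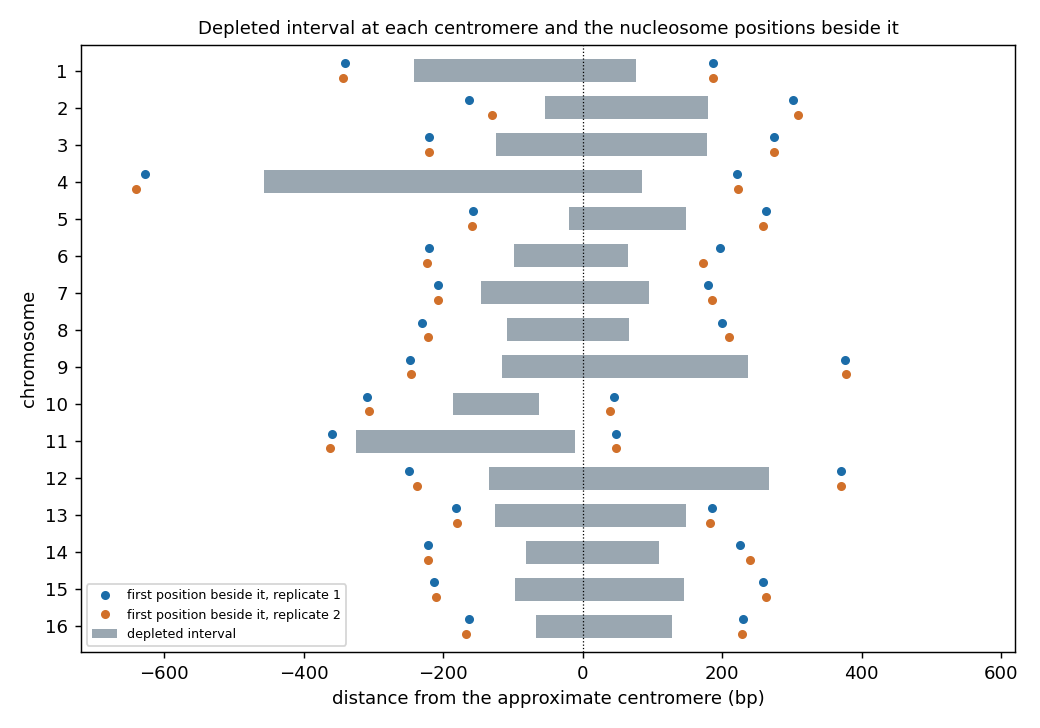
The depleted interval nearest each approximate centromere (grey bars) and the first called nucleosome position on each side in replicate 1 (blue) and replicate 2 (orange), by chromosome, with distance from the approximate centromere in bp. Every centre has an interval, between 123 and 543 bp wide, and 30 of the 32 bordering positions lie within 20 bp of each other in the libraries.

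The intervals were not of equal width. Their width had a median of 241 bp, a lowest value of 123 bp on chromosome 10 and a highest of 543 bp on chromosome 4. In the coordinates of the deposited reads (build sacCer2), the narrowest interval was chr10:436014-436136 and the widest was chr4:449343-449885. Systematic names number yeast genes outward from the centromere, so the genes with the lowest number on each arm name the neighbourhood. They were taken from the RefSeq gene table of assembly R64 by name, without joining any position. On chromosome 4 these are RMD1 and NTH1, a neutral trehalase, and on chromosome 10 they are PRE3, a proteasome subunit, and AVT1, a vacuolar amino acid transporter. The next widest interval, 402 bp at chr12:150766-151167, belongs to the chromosome whose lowest numbered left gene is DNM1, a dynamin-related GTPase of mitochondrial fission. On chromosome 9, where SGN1 is the lowest numbered right gene, the interval measured 353 bp.

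Narrow intervals of 163 bp, 167 bp and 175 bp were found on chromosomes 6, 5 and 8. The intervals of chromosomes 14 and 16 measured 191 bp and 194 bp. Chromosome 14 carries CIT1, mitochondrial citrate synthase, as the lowest numbered gene of its right arm, and chromosome 16 carries HAT1, a histone acetyltransferase, on its left arm. The remaining intervals lay between 234 bp on chromosome 2 and 319 bp on chromosome 1. In all, 10 of the 16 measured at least 200 bp, against 29.8% of the 3322 depleted intervals of the nuclear genome.

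Each central interval was compared with the median of the other depleted intervals that held reads, within 10 kb and in the control windows of its chromosome. Intervals without any read were left out. This comparison and those of the same kind below were chosen after the values were seen. The central intervals measured 265 ± 107 bp and the others 147 ± 22.1 bp (SD, 16 chromosomes). The second value is a mean of chromosome medians, in which the widest intervals weigh little. Summed, the 16 central intervals covered 4236 bp and the 383 others 89165 bp, so their mean widths lay closer together. The intervals left out include long stretches, since 129 control windows held no read in either library. They would add to the summed width of the others, and their effect on the comparison was not tested. The central interval was wider on 15 of 16 chromosomes, by 118 ± 96.0 bp (SD), and the exception was chromosome 10. In a two-sided sign-flip permutation test over the chromosomes p was 6.10e-05, and after Benjamini-Hochberg adjustment over the 16 results tested it was 0.000488. Widths start at 80 bp and reach far above their median, so differences from a median need not centre on 0. The p may therefore be too small, here and in the comparisons of the same kind below. The central interval is also the one nearest a given point, and a wide interval covers more points. This choice favours wide intervals, also in the share of at least 200 bp above, and by how much was not tested. Within 10 kb the central interval was the widest on 7 of 16 chromosomes and among the 3 widest on all 16. The number of intervals there had a median of 6 and was only 3 on chromosome 9 and 1 on chromosome 15, which fixes the rank on these 2. With coverage under 0.1 times the median as the limit, the difference was 46.1 bp with an adjusted p of 0.0139, and with 1 read kept per position and strand it was 59.6 bp with an adjusted p of 0.00244. Over the alternatives the adjusted p ranged from 0.000488 to 0.0139.

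The nucleosomes that bordered the central interval stood at nearly the same places in both libraries. Positions were called as local maxima of the smoothed read density, separately in each library. The 32 bordering positions differed between the libraries by a median of 2.5 bp, 27 of them by at most 10 bp and 30 by at most 20 bp. Agreement of this kind was common, since 79.2% of all pericentromeric positions and 81.1% of the control positions had a partner within 20 bp in the other library, and the shares were not compared by a test. The largest differences were 33 bp on the left of chromosome 2 and 25 bp on the right of chromosome 6. The left position of chromosome 2 was called at -163 bp in replicate 1 and -130 bp in replicate 2. With the reads of both libraries added it was called elsewhere, at -284 bp. Chromosome 3 has RER1, a Golgi protein that returns membrane proteins to the endoplasmic reticulum, as its lowest numbered left gene. Its positions lay at -221 bp and 274 bp in replicate 1 and at -220 bp and 274 bp in replicate 2. On chromosome 9 they lay at -248 bp and 376 bp in replicate 1 and at -247 bp and 377 bp in replicate 2. The pair on each of these chromosomes thus differed by at most 1 bp between the libraries.

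With the reads of both libraries added, the distance from the left to the right bordering position had a lowest value of 351 bp on chromosome 10, a median of 446.5 bp and a highest value of 858 bp on chromosome 4. On chromosome 2 it was 589 bp with the reads added but 465 bp in replicate 1 and 438 bp in replicate 2. The mean distance with the reads added was 488 ± 131 bp (SD, 16 chromosomes), against 404 ± 35.0 bp for the positions around the other depleted intervals. It was longer on 13 of 16 chromosomes, by 83.8 ± 133 bp (SD), with an adjusted permutation p of 0.0285. This call was lost when 1 read was kept per position and strand, where the difference was 21.3 bp with an adjusted p of 0.472, and with the limit of 0.1 times the median, where it was 2.22 bp with an adjusted p of 0.904. Over the alternatives the adjusted p ranged from 0.000977 to 0.904.

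How strongly the bordering positions were filled varied between chromosomes. Reads within 73 bp of the left position in replicate 1 ranged from 75 on chromosome 11 to 511 on chromosome 6, with a median of 226. Chromosome 11 has MET14, a kinase of sulfate assimilation, and VPS1, a dynamin-like GTPase of vacuolar sorting, as its lowest numbered genes. Its left position had 75 and 67 reads in replicates 1 and 2 and its right position had 55 and 17. Chromosome 15 has the cyclin PHO80 and the nuclear exosome subunit RRP6 as its lowest numbered genes. Its left position had 186 and 218 reads and its right position had 490 and 370. The borders of chromosome 11 were thus low in both libraries, and the right border of chromosome 15 was high in both. Chromosomes 13 and 16 also had low borders, with 31 to 104 reads and 44 to 87 reads per position and library.

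Divided by the median window, the bordering positions held 0.519 ± 0.241 and those around other depleted intervals 0.595 ± 0.0760 (SD, 16 chromosomes). The difference, -0.0755 ± 0.232, was within the spread over chromosomes, with an adjusted permutation p of 0.313. Fuzziness, the SD of read midpoints within 73 bp of a position, was 25.3 ± 4.58 bp at the borders of the central interval and 26.8 ± 1.06 bp at those of the others, a difference of -1.42 ± 4.95 bp with an adjusted p of 0.351. It was lowest on chromosome 10, at 19.6 bp, and highest on chromosome 4, at 35.2 bp. Neither measure passed the test.

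To allow for the error of the approximate centres, the emptiest 250 bp within 400 bp of each centre was found in 1 library and the reads were counted in the other. In the stretches chosen in replicate 1, replicate 2 held 47 reads in all 16 together, from 0 on chromosome 12 to 12 on chromosome 8 with a median of 2. This is 0.869% of the reads of 16 median windows (exact Poisson 95% interval 0.639% to 1.16%). In the stretches chosen in replicate 2, replicate 1 held 186 reads, from 4 on chromosome 5 to 21 on 4 chromosomes (1, 4, 8 and 12), with a median of 10. This is 2.94% (2.53% to 3.39%). The intervals cover counting error only, since copied fragments are not independent molecules. A search for the emptiest stretch finds low values anywhere, so the same search was run at 1278 points 1000 bp apart in the control windows, as a description added after the values were seen. There the median was 123 reads in replicate 2 (36.4% of the median window) and 168 reads in replicate 1 (42.4%). Of the control points, 9.15% had no more than the 12 reads of the highest centre in replicate 2, and 10.5% no more than the 21 reads of the highest centre in replicate 1. All 16 centres lay under the control median of their chromosome in both libraries. The stretches chosen in the libraries differed in place by a median of 8 bp and by at most 34 bp, and 14 of 16 lay within 60 bp of the approximate centre in replicate 1. The exceptions were chromosome 10, at -124 bp, and chromosome 11, at -177 bp, the chromosomes for which an error of the centre had been allowed.

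**Figure D2:**
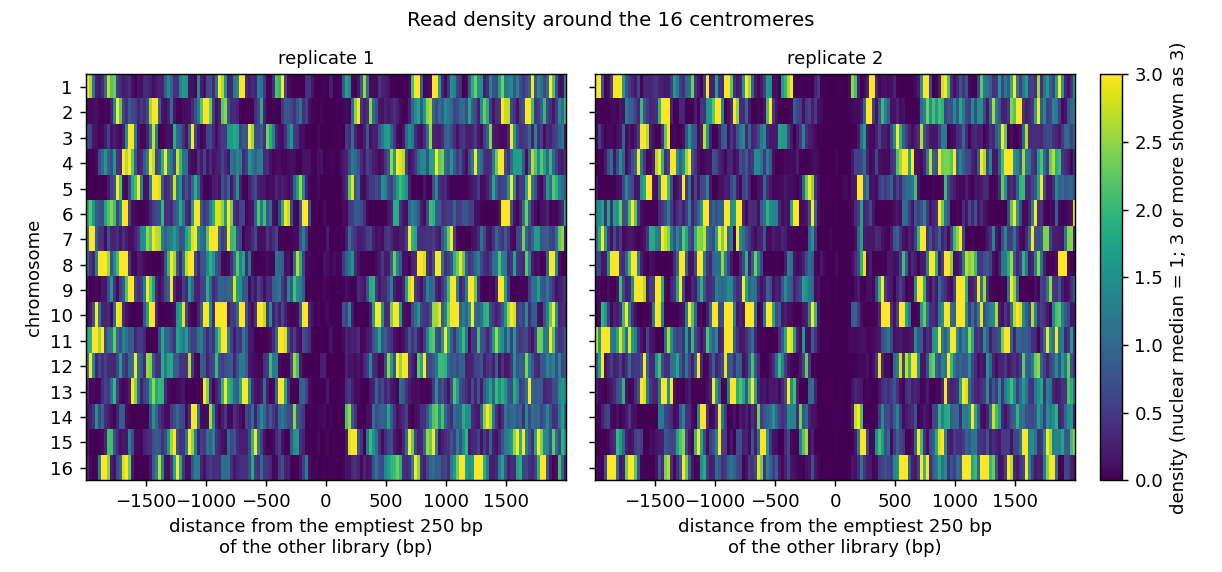
Read density in bins of 25 bp within 2 kb of the emptiest 250 bp that the other library chose, with 1 row per chromosome and colour from 0 to 3 times the nuclear median (higher values are shown as 3). A dark column almost without reads runs through all 16 chromosomes in both libraries, and the rows outside it differ from each other.

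**Figure D3:**
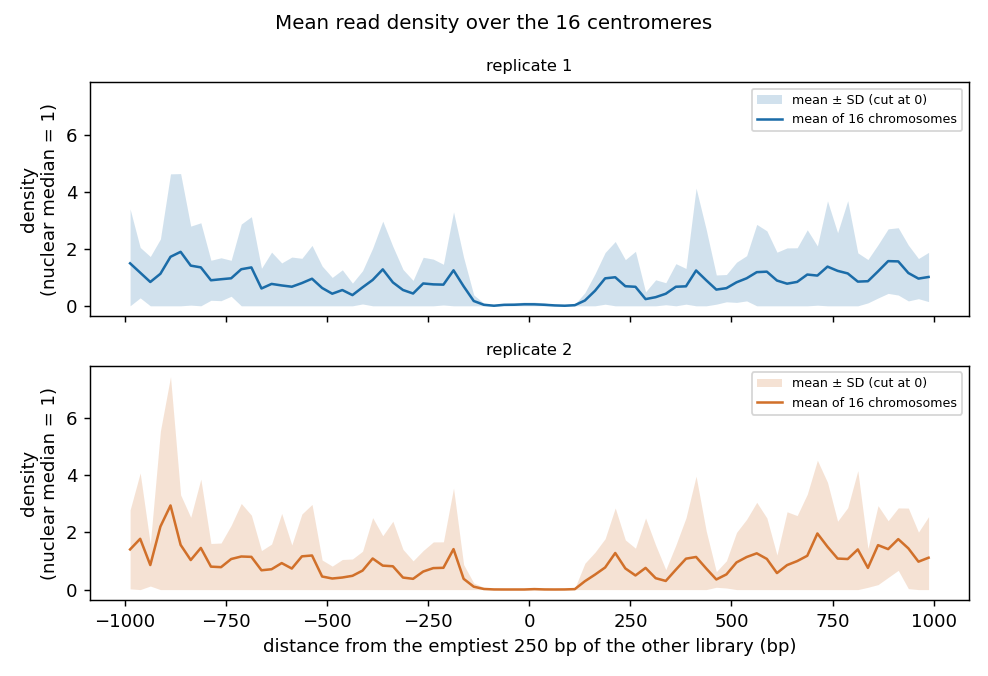
Mean density (line) and SD (shading, cut at 0) over the 16 chromosomes in bins of 25 bp against distance in bp from the emptiest 250 bp of the other library. Between -100 and 100 bp the mean is 0.0294 in replicate 1 and 0.00601 in replicate 2, and on the right both libraries peak at 212.5 bp.

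Aligned in this way, the mean density between -100 and 100 bp was 0.0294 in replicate 1 and 0.00601 in replicate 2. On the right the mean peaked at 212.5 bp in both libraries, at 1.00 ± 1.25 in replicate 1 and 1.28 ± 1.58 in replicate 2 (SD, 16 chromosomes). On the left the libraries peaked at different places. Replicate 2 peaked at -187.5 bp, at 1.42 ± 2.14, and replicate 1 at -362.5 bp, at 1.28 ± 1.69, with 1.24 ± 2.05 in the bin at -187.5 bp. The SD exceeded the mean at each of these points. In the rows of the heat map, the nearest bright bin moved from chromosome to chromosome.

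Replicate 1 held a few reads in the very middle of the empty stretch. This was seen in the aligned profile and was not tested, and each library was counted at the stretches chosen in the other. In replicate 1 the middle 100 bp held 114 reads over the 16 chromosomes, from 0 on chromosomes 3 and 5 to 20 on chromosome 12 with a median of 6.5, and the 50 bp on either side together held 35, with a median of 1. The middle held more reads than its sides on 13 chromosomes and fewer on 3. In replicate 2 the middle held 16 reads and the sides 10, the middle held more on 7 chromosomes and fewer on 2, and 7 had equal numbers. Chromosome 12 had 20 reads in the middle and 1 at the sides, chromosome 13 had 10 and 0, and chromosome 1 had 12 and 0, all in replicate 1. The libraries were of similar depth, with a median window of 338 reads in replicate 2 and 396 in replicate 1. Replicate 2 thus held far fewer reads in the middle than replicate 1, 16 against 114. Its counts are too low to show whether the middle differs from the sides.

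The libraries also differed over the whole central interval. The 16 central intervals together held 305 reads in replicate 1 and 123 in replicate 2, a ratio of 0.472 after scaling by the median window. The 383 other depleted intervals with reads, within 10 kb and in the control windows, held 5229 and 3821 reads, a ratio of 0.856. After scaling, replicate 2 was lower at 15 of 16 central intervals. Chromosome 12 had 49 reads in replicate 1 and 9 in replicate 2, and chromosome 10 had 7 and 0. Chromosome 9, with 16 and 15 reads, was the exception. Per chromosome, with 1 read added to each count, the log2 ratio of replicate 2 to replicate 1 was -1.27 ± 0.783 in the central interval and -0.29 ± 0.192 in the others (SD, 16 chromosomes). The difference of -0.98 ± 0.796 was negative on 14 of 16 chromosomes, with an adjusted permutation p of 0.00183. The call was lost when each read was moved by 73 bp instead of to the strand midpoint, with a difference of -0.63 and an adjusted p of 0.121, and over the alternatives the adjusted p ranged from 0.000326 to 0.121.

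Beside this result stands a difference in fragment length. The distance between the strands, a measure of the length of the sequenced fragments, was 93 bp in replicate 1 and 84 bp in replicate 2 over the nuclear genome. Its part in the difference inside the central interval was not tested. Averaged over both libraries, the density inside the central intervals was 0.0285 ± 0.0222 and that inside the others 0.0353 ± 0.0105 (SD, 16 chromosomes), with an adjusted permutation p of 0.407. Intervals without reads were left out of the others, which can raise their density. Without replicate 1 the difference was -0.0202 with an adjusted p of 0.0225.

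Over the windows, the centre was less densely read than the rest of the pericentromere. The 2 windows beside the approximate centre had a mean density of 0.317 ± 0.173, against a median of 0.953 ± 0.109 for the other 78 windows within 10 kb (SD, 16 chromosomes). The log2 difference was -1.77 ± 0.787, a ratio of 0.294, and the centre was lower on 15 of 16 chromosomes. The permutation p was 6.10e-05 and the adjusted p 0.000488, where the smallest p that the 65536 sign patterns can give is 3.05e-05. By the mean of both libraries the lowest central density was that of chromosome 16, with 0.174 in replicate 1 and 0.169 in replicate 2. Next came chromosome 2, with 0.215 and 0.133, and chromosome 10, with 0.202 and 0.149. Chromosomes 12 and 13 followed with 0.205 and 0.213 in replicate 1 and 0.155 and 0.170 in replicate 2.

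The exception was chromosome 6, with densities of 0.804 and 0.649 at the centre and 0.649 and 0.621 in the rest of its pericentromere. Its central interval measured 163 bp, and its left bordering position, at -222 bp, held 511 reads in replicate 1. Their part in the exception was not tested, and chromosome 10 had a low centre with a narrower interval. The rest of the chromosome 6 pericentromere includes 20 windows without reads, which entered its median. Without windows under 10 reads the log2 difference over the chromosomes was -1.64, and within 5 kb it was -1.74. Each had a permutation p of 3.05e-05. This smallest p needs all 16 differences to share a sign, so the centre of chromosome 6 was also lower in these 2 alternatives. The centres of chromosomes 14 and 8 were also shallow, at 0.514 and 0.550 on chromosome 14 and 0.516 and 0.451 on chromosome 8. On chromosome 5 the libraries differed, with 0.426 in replicate 1 and 0.675 in replicate 2, and so they did on chromosome 11, with 0.285 and 0.143. Over 11 alternatives the log2 difference ranged from -1.96 to -1.08, and the adjusted p from 0.000488 to 0.00130. In 1 of them the centre was placed at the emptiest stretch of the other library, which gave -1.63, and there the choice itself favours a low value.

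Away from the centre the density came back within 1 kb on both sides. By windows of 250 bp it was 0.360 ± 0.292 just left and 0.269 ± 0.177 just right of the approximate centre, 0.581 ± 0.386 and 0.786 ± 0.885 in the next windows, and 0.895 ± 0.394 and 1.01 ± 0.613 in those from 500 to 750 bp (SD, 16 chromosomes). From 750 to 1000 bp it reached 1.20 ± 0.808 on the left and 1.36 ± 0.807 on the right. From there to 2 kb no window mean fell under 0.926. In these means the lowest values lay in the 500 bp on either side of the centre, with a wide spread between chromosomes.

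Pericentromeric chromatin as a whole was less densely read than the control. The median window density was 0.931 ± 0.104 within 10 kb and 1.08 ± 0.0874 in the control (SD, 16 chromosomes, mean of both libraries). The log2 difference was -0.23 ± 0.230, a ratio of 0.855, and it was negative on 14 of 16 chromosomes, with a permutation p of 0.000244 and an adjusted p of 0.00130. Replicate 1 alone gave -0.24 and replicate 2 alone -0.21. The control lay above the nuclear median and the pericentromere below it, so only a part of the difference is a deficit against the nuclear median.

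**Figure D4:**
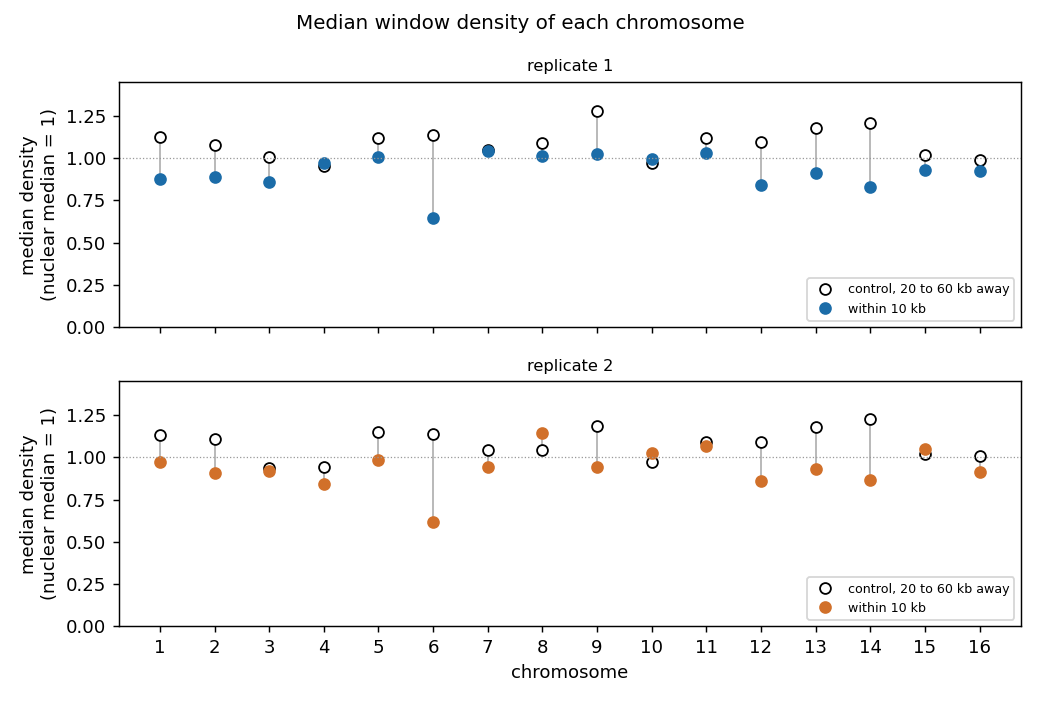
Median density of the windows within 10 kb of the centromere (filled) and of the control windows 20 to 60 kb away (open) for each chromosome, in each library, with the nuclear median at 1. Chromosome 6 is lowest, at 0.646 in replicate 1 and 0.618 in replicate 2, and chromosome 10 lies above its control in both libraries.

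Chromosome 6 had the largest difference, with a pericentromeric density of 0.646 and 0.618 in replicates 1 and 2 against 1.14 and 1.14 in its control. It was followed by chromosome 14, with 0.827 and 0.868 against 1.21 and 1.23, and chromosome 12, with 0.840 and 0.861 against 1.10 and 1.09. Chromosome 10 was the only chromosome above its control in both libraries, with 0.996 and 1.02 against 0.970 and 0.970. Of its control windows 40 of 320 held no read in either library, and of its pericentromeric windows none was without reads. Windows without reads entered the medians and lower this control, and their part in the exception was not tested. The controls of chromosomes 3, 7 and 2 held 40, 22 and 18 such windows. Chromosome 4 was above its control in replicate 1 alone, by a log2 difference of 0.03. Chromosomes 8 and 15 were above theirs in replicate 2 alone, by 0.14 and 0.04. Apart from chromosome 6, the pericentromeres ranged from 0.827 to 1.04 in replicate 1 and from 0.842 to 1.15 in replicate 2, and their order changed between the libraries, with chromosome 14 lowest of these in replicate 1 and chromosome 4 in replicate 2.

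A stretch without reads takes a large part of the chromosome 6 pericentromere. No read of either library was placed in the 5242 bp of chr6:138601-143842, which begins at the outer edge of the left 10 kb and accounts for 20 of the 80 windows. The other windows without reads were 3 on chromosome 1, in a stretch of 1058 bp at chr1:160259-161316. The longest stretch without reads on any other pericentromere was 166 bp, on chromosome 14. Whether these stretches could take up reads was not tested. Without chromosome 6 the log2 difference of the window density was -0.18 with an adjusted p of 0.00195, and without windows under 10 reads it was -0.23 with an adjusted p of 0.000326.

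Without the central 1000 bp the log2 difference of the window density was -0.18 with an adjusted p of 0.0145, and without the central 4000 bp it was -0.19 with an adjusted p of 0.0199. Within 5 kb it was -0.30. These exclusions and the one of chromosome 6 were chosen after the values were seen. With 1 read per position and strand the difference kept its direction at -0.12 with an adjusted p of 0.00269, and over all 12 alternatives the adjusted p ranged from 0.000326 to 0.0270.

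**Figure D5:**
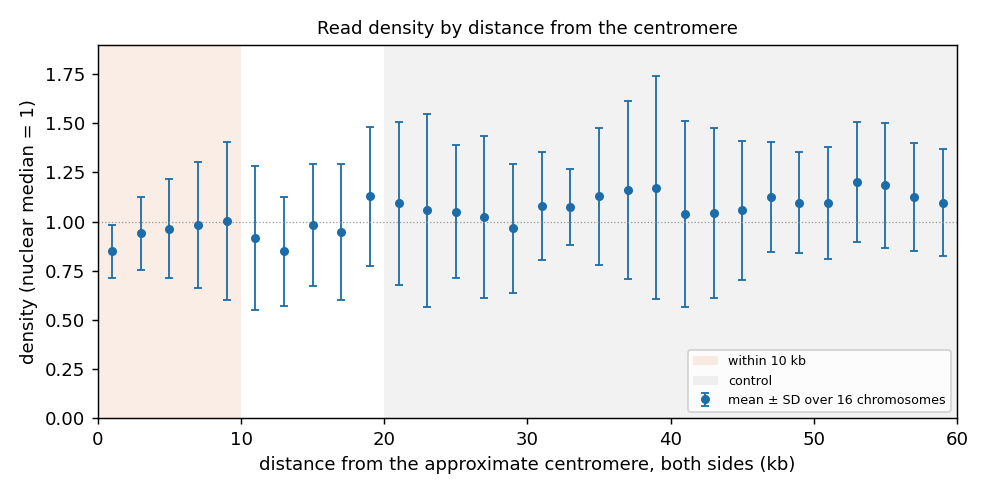
Mean density (points) and SD (bars) over the 16 chromosomes in zones of 2 kb, both sides together, against distance from the approximate centromere in kb. The density is 0.849 in the first 2 kb and 1.00 from 8 to 10 kb, and zones beyond 30 kb lie between 1.04 and 1.20.

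By distance, the density was 0.849 ± 0.133 in the first 2 kb, 0.941 ± 0.186 from 2 to 4 kb, 0.964 ± 0.251 from 4 to 6 kb, 0.984 ± 0.321 from 6 to 8 kb and 1.00 ± 0.402 from 8 to 10 kb (SD, 16 chromosomes). It did not rise steadily beyond that, with 0.917 from 10 to 12 kb and 0.848 from 12 to 14 kb. From 18 to 60 kb the zone means lay between 0.967 and 1.20. In the first 2 kb the left side had 0.793 ± 0.189 and the right side 0.922 ± 0.257, which overlap within their spread. No test was run over the zones.

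The windows of the pericentromere were thinner at the high end of the range. Of the 1280 windows, 90 had more than 2 times the nuclear median in both libraries, which is 7.03%, against 9.4% of all nuclear windows and 11.7% of the control windows. The share was lower than in the control on 14 of 16 chromosomes, and the exceptions were chromosome 3, with 12 of 80 windows against 35 of 320, and chromosome 10, with 10 of 80 against 34 of 320. At the low end, 246 windows or 19.2% had less than 0.5 times the median in both libraries, against 18.2% of all nuclear windows and 15.9% of the control windows. Fewer than 10 reads in both libraries were found in 26 windows or 2.03%, against a background of 4.16% and 2.99% of the control windows. No read at all was found in 23 or 1.80%, against 3.77% and 2.52%. Chromosome 6 alone held 21 of the 26 and 20 of the 23, and 13 and 14 chromosomes had no such window. The shares at the low end were near or under the background of the whole genome. The 90th percentile of the density was 1.99 in the pericentromere and 2.27 in the control, and the 10th percentile was 0.286 and 0.293.

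The densest pericentromeric window was chr13:272351-272600, 4250 bp right of the centre, with 1681 reads in replicate 1 and 1722 in replicate 2, 4.67 times the nuclear median. It lies on the arm whose lowest numbered gene is CDC5, the polo-like kinase of mitosis, but it was not joined to a gene. The next were chr3:105901-106150, with 1938 and 1420 reads, and chr14:624051-624300, with 1613 and 1485. All of these windows were high in both libraries. Among windows that held reads, the lowest was chr6:143601-143850, with 7 and 3 reads, and it takes in the end of the stretch without reads. It was followed by chr1:141751-142000, with 7 and 5 reads, and chr5:156501-156750, with 7 and 6 reads.

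Spacing and fuzziness of the nucleosomes did not differ between pericentromere and control beyond the spread over chromosomes. With the reads of both libraries added, 1326 positions were called in the pericentromeres, 4.14 per kb, against 4.23 per kb in the control. Positions were kept at least 147 bp apart and only distances under 300 bp counted, so the comparison cannot see shorter spacing. The lag of the autocorrelation, given below, was shorter than the median distance, at 163 bp in the pericentromere and 166 bp in the control. The median distance between adjacent positions was 192 ± 9.16 bp and 191 ± 2.94 bp (SD, 16 chromosomes), a difference of 0.781 ± 10.3 bp with an adjusted permutation p of 0.774. It was shortest on chromosome 5, at 172.5 bp, and longest on chromosome 16, at 206 bp. The direction of this difference turned when each read was moved by 73 bp and when 1 read was kept per position and strand. Fuzziness was 28.9 ± 0.858 bp against 29.1 ± 0.387 bp, with an adjusted p of 0.614. It was lowest on chromosome 3, at 26.8 bp, and highest on chromosome 2, at 30.7 bp, and the direction of the mean difference turned with the 73 bp move and without replicate 2.

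Array regularity was measured as the maximum of the autocorrelation of the read density over lags from 120 to 220 bp. This is the highest value in that range and need not be a local peak. It was 0.240 ± 0.0890 in the pericentromere and 0.277 ± 0.0620 in the control (SD, 16 chromosomes), lower on 12 of 16 chromosomes, with an adjusted permutation p of 0.233. The most regular pericentromere was that of chromosome 3, at 0.442, followed by chromosomes 6 and 5, at 0.384 and 0.376. The least regular was that of chromosome 15, at 0.154. Within 5 kb the difference was -0.0524 with an adjusted p of 0.0218, and over the alternatives the adjusted p ranged from 0.0218 to 0.407.

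The lag at which that maximum stood was slightly shorter in the pericentromere, at 163 ± 4.19 bp against 166 ± 2.55 bp (SD, 16 chromosomes). This measure was chosen after the values were seen. The difference was -2.44 ± 3.30 bp, negative on 13 of 16 chromosomes, with an adjusted permutation p of 0.0255. The lowest lag was 155.5 bp on chromosome 13, where the control had 164 bp, and the highest was 169.5 bp on chromosomes 9 and 14, where it had 171 and 167 bp. In replicate 2 alone it was -1.88 bp with an adjusted p of 0.233, so the call rested on replicate 1. It was also lost with the 73 bp move, which gave a difference of -13.95 bp, with a limit of 1 read per position (-3.91 bp), with all reads per position (-3.11 bp) and with a control of 20 to 40 kb (-2 bp). Over the alternatives the adjusted p ranged from 0.0209 to 0.309.

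Depleted intervals numbered 98 within 10 kb of the centres, from 1 on chromosome 15 to 9 on chromosomes 4 and 13. Their density was 0.313 ± 0.107 per kb against 0.257 ± 0.0392 per kb in the control (SD, 16 chromosomes), higher on 13 of 16 chromosomes, with an adjusted permutation p of 0.108. On chromosome 15 the central interval was the only one within 10 kb. Within 5 kb the difference was 0.105 per kb with an adjusted p of 0.0232, and without replicate 1 it was 0.0777 with an adjusted p of 0.0273. Over the alternatives the adjusted p ranged from 0.0232 to 0.236.

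The share of positions found in both libraries did not pass the test either. With SDs over the 16 chromosomes, the share matched within 20 bp was 79.2 ± 4.03% in the pericentromere and 81.1 ± 1.84% in the control, with an adjusted permutation p of 0.233. The share was lowest on chromosome 2, at 72.2%, and highest on chromosome 10, at 85.4%. With a limit of 10 bp the difference was -3.52 percentage points with an adjusted p of 0.0460, and over the alternatives the adjusted p ranged from 0.0460 to 0.774. The distance between the strands, averaged over both libraries, was 84.8 ± 4.82 bp in the pericentromere and 85.7 ± 2.06 bp in the control, with an adjusted p of 0.580.

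Over all windows the density of replicate 2 relative to replicate 1 was slightly higher in the pericentromere than in the control. The median log2 ratio was 0.03 ± 0.0555 within 10 kb and -0.01 ± 0.0357 in the control (SD, 16 chromosomes). The difference of 0.04 ± 0.0541 was positive on 14 of 16 chromosomes, with an adjusted permutation p of 0.00400, and was largest on chromosome 6, at 0.20. In the 20 windows of chromosome 6 without reads, the ratio comes from the added read and the scaling alone. Without chromosome 6 the difference was 0.0322 with an adjusted p of 0.00801. Without windows under 10 reads it was 0.0416 with an adjusted p of 0.000977. The difference was -0.00162 with 1 read per position and strand, with an adjusted p of 0.774. Its call was also lost within 5 kb, with the mean over windows and with the 73 bp move. Its sign is opposite to that of the ratio inside the central interval.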

How the data were processed

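The 2 libraries were sequenced from 1 end of each fragment by the authors, who deposited aligned reads as intervals of 150 bp with chromosome, start, end and strand, on build sacCer2 per the submitters' processing notes. The deposited values are read positions, without normalization. The study gives 36 cycles of sequencing, so the 150 bp of each interval are not the sequenced length. The 5′ end was taken from the start of plus-strand intervals and the end of minus-strand intervals. This assumes that each read was lengthened from its 5′ end. The aligner and the handling of repeated sequence are not given in the sources used here.

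The 5′ ends were moved by 46 bp (replicate 1) or 42 bp (replicate 2) to the strand midpoint. Positions were called after Gaussian smoothing (SD 20 bp) with an exclusion zone of 147 bp. The autocorrelation and the strand distance (at least 60 bp) used at most 20 reads per position and strand. Distances between adjacent positions counted if under 300 bp. Regions of each chromosome were paired, and their differences were tested over 16 chromosomes by a two-sided sign-flip permutation test with all 65536 sign patterns and Benjamini-Hochberg adjustment over 16 results, of which 7 (the lag and those on depleted intervals around the centre) were added after the values were seen. Ratios of reads used a pseudocount of 1 read. The 16 centres, the extremes of each measure and the 3 highest and lowest windows were named by rule. The regions and measures were chosen with earlier results of these data known. The alternatives included other read placement, 1 read per position, other distance limits, other limits for calls, and leaving out a library or chromosomes. The measures of pericentromere against control and of the central windows were run on simulated data. The comparisons of the central interval with other depleted intervals and the search for the emptiest stretch were not. The scripts ran under Python 3.11.15 with scipy 1.17.1, numba 0.67.0, numpy 2.4.6, matplotlib 3.10.9 and pandas 2.3.3. No position was joined to a gene. Reads on the mitochondrial chromosome entered no comparison.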

Additional observations from a re-analysis of the deposited data

Results flagged for a closer look

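The mitochondrial chromosome lies outside every comparison above, and it held reads in both libraries, 16439 in replicate 1 and 27301 in replicate 2. There is no control sample against which to set these numbers.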

How the results depend on the processing

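No paired analysis was possible because the libraries form a single group, so that their replicate numbers pair no samples. The pairing used was of regions within chromosomes. The window density, the central density and the width of the central interval kept their direction and their side of the threshold under all alternatives run for them. With each read moved by 73 bp, the difference in spacing was -0.0938 bp, in fuzziness 0.0376 bp, in the library ratio of window density 0.0330, in the lag -13.95 bp, and in the library ratio inside the central interval -0.63. With 1 read per position and strand, the difference in spacing was -0.0313 bp, in the library ratio of window density -0.00162, in strand distance 0.503 bp, in the lag -3.91 bp, and in the distance between bordering positions 21.3 bp. With a coverage limit of 0.1 times the median the last was 2.22 bp. Within 5 kb, depleted intervals differed by 0.105 per kb, regularity by -0.0524, and the library ratio of window density by 0.0190. With the mean over windows that ratio differed by 0.0192. Matching within 10 bp gave -3.52 percentage points. The lag was -2 bp with a control of 20 to 40 kb and -3.11 bp with all reads per position. With a library left out, depleted intervals differed by 0.0567 to 0.0777 per kb, fuzziness by -0.259 to 0.00397 bp, strand distance by -2.11 to 0.286 bp, the lag by -3.01 to -1.88 bp and the density inside the central interval by -0.0202 to -0.00262. In each case the cause was not tested. Low counts limit what can be said inside the central intervals, where replicate 2 held a median of 3 reads.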
